A study of Mus with 17 samples.

Results

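Drugs, pollutants, bile acids and plant compounds are cleared from the body in large part by cytochromes P450 of the liver, and the genes of these enzymes are set by receptors that sense the compounds themselves. The 8 genes described here are 3 such receptors, Nr1i2 (the pregnane X receptor PXR), Nr1i3 (the constitutive androstane receptor CAR) and Ahr (the aryl hydrocarbon receptor), with 4 P450 genes of the families that they regulate, Cyp1a2, Cyp3a11, Cyp3a13 and Cyp3a25, and Por, the reductase that hands electrons to P450 enzymes. They were chosen by name, not by their values, though earlier results of these data were known. They are 8 of 24937 genes with a value in the deposited files. All 8 passed the filter on low counts and were among the 13204 genes tested.

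Sequencing covered liver RNA of 17 C57BL6/JBomTac mice, all male, with 1 library from each. The western diet group was 8 mice fed for 52 weeks on a western diet with 42 g/L of fructose in the water, the regimen by which the study brought on advanced steatohepatitis. The chow group was 9 mice of matching age on standard chow and plain water, and every mouse was fasted overnight before it was killed. Groups follow the treatment field, since another label gives WD to chow mice as well; no batch, day or hour of collection is given.

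PXR and CAR are nuclear receptors that pair with the retinoid X receptor, and their targets in mouse liver include Cyp3a11, genes of the Cyp2b and Cyp2c families, conjugating enzymes and transporters. CAR is held in the cytoplasm until a signal releases it, whereas PXR is opened by ligands that fit its wide pocket. Ahr waits in the cytoplasm bound to HSP90, pairs in the nucleus with ARNT, and drives the Cyp1 genes; Cyp1a2, unlike Cyp1a1, is also made without an inducer, in hepatocytes around the central vein. Por sits in the membrane of the endoplasmic reticulum and serves nearly all of its P450 enzymes.

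The libraries held 3604212 to 9071908.5 counts, so that 3 counts, the most that a count of 0 allows, came to 0.331 to 0.832 CPM (the count of a gene relative to a fixed library total; counting error only). Hepatocyte markers were high in every library, with the 7 genes of that list summing to 10278 to 17092 CPM on western diet and 13774 to 19160 CPM on chow. Western diet replicate 5 and chow replicate 2 stood apart with pancreatic transcripts: 8 acinar genes summed to 4520 and 13866 CPM there, against 132.9 to 492.98 CPM in the other 15 libraries. No library of a diet repeated another within sampling noise (chi-square per degree of freedom of at least 3.94). Each library was taken as 1 mouse, so p-values for a difference between diets weigh it against the spread between mice.

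Of the 8 genes, 5 fell on western diet and none rose. Nr1i3 fell furthest, to 49.5% of the chow level, followed by Cyp3a25 to 60.8%, Por to 62.5%, Cyp3a11 to 68.8% and Nr1i2 to 85.6% (edgeR's quasi-likelihood test, n = 8 and 9). Ahr, Cyp1a2 and Cyp3a13 did not pass. Across all tested genes 23.6% fell and 24.8% rose at the same threshold, an adjusted p under 0.05, and the median log2 difference was −0.0091 against −0.38 over these 8. No member rose at an unadjusted p under 0.05 either, nor with DESeq2 or limma-voom, and both of those tools found the same count of 5 falling. In Nr1i3 and Por all western diet libraries lay below all chow libraries, a pattern found in 5.03% of the genes tested.

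**Figure D1:**
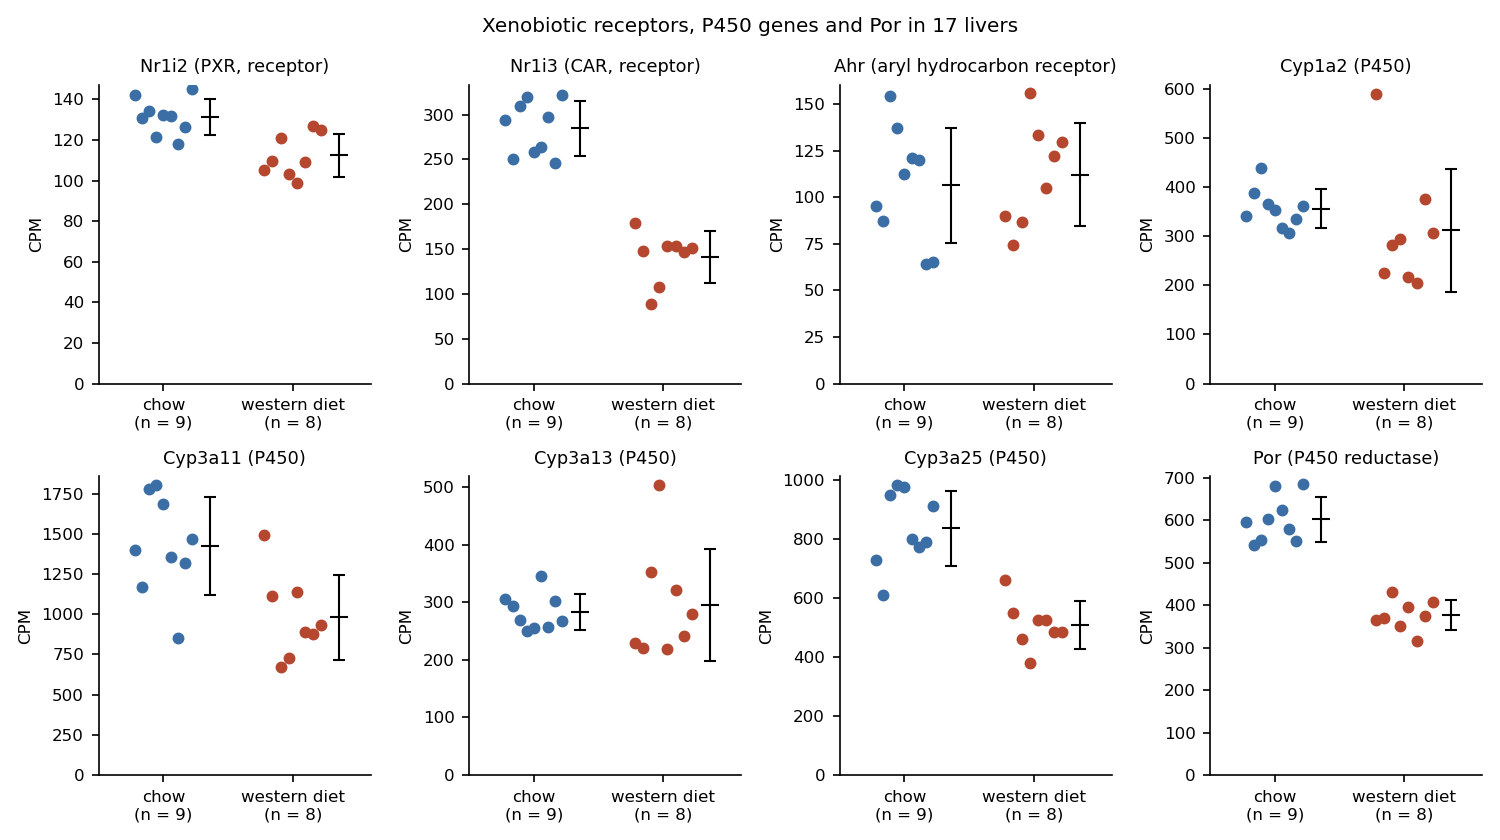
Level of each of the 8 genes (CPM, linear axes from 0) in the 9 chow libraries (blue) and the 8 western diet libraries (red), 1 point per mouse, with the mean and SD of each diet as a bar beside the points. The diets do not overlap in Nr1i3 and Por, and 1 western diet library lies far above the rest in Cyp1a2 (589 CPM) and 1 in Cyp3a13 (504 CPM).

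CAR was the receptor with the largest difference. Nr1i3 was at 88.2 CPM in the lowest western diet library, 149.8 in the median and 179.5 in the highest, and at 245.8, 294.02 and 321.9 CPM on chow. The highest western diet library was thus well under the lowest chow library. The log2 difference was −1.01 ± 0.11 (± SE; adjusted p = 5.67e-07), a level 2.02-fold lower. The 2 lowest libraries were western diet replicate 3 (88.2 CPM) and replicate 4 (107 CPM), while the other 6 lay between 146 and 180 CPM. The fall passed in all 32 alternative fits, with log2 differences of −1.07 to −0.68, and Nr1i3 alone among the 8 passed a test against a 1.5-fold change (adjusted p = 0.00171).

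Counts of Nr1i3 could not be told apart from those of a neighbour. On the mouse assembly mm10 Nr1i3 lies on chromosome 1, 171213934 to 171218845, and its last 1044 bases are also annotated to Tomm40l, a gene of a mitochondrial import pore protein (171217802 to 171222514). Tomm40l was at 151 ± 30.7 CPM on western diet and 297 ± 37.9 CPM on chow (mean ± SD, n = 8 and 9), log2 difference −0.97 ± 0.12 (edgeR, adjusted p = 1.82e-06). In every library its count was 0.973 to 1.16 times that of Nr1i3. Among tested genes whose average log2 CPM was 1 or more it was also the one whose deviations from the diet means were most like those of Nr1i3 (r = 0.97 over the 17 libraries, a description with no test). The strand setting of the counting is not given in the sources used here, and how far the counts share reads was not tested.

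PXR differed much less. Nr1i2 ranged from 98.7 CPM through a median of 109.5 to 127 CPM on western diet and from 118 through 131.6 to 145 CPM on chow. All 8 western diet libraries were under the chow median, but 3 of them lay within the chow range. This gave a log2 difference of −0.22 ± 0.062 (edgeR, adjusted p = 0.00544). It rests on the scaling of the libraries: with library size alone the log2 difference was −0.098 (adjusted p = 0.236), while the median over all genes then moved to 0.12 from −0.0091. Nr1i2 spread little between mice, with a coefficient of variation of 9.44% on western diet and 6.63% on chow. The gene lies on chromosome 16, 38248349 to 38294849.

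The balance of the receptors does not depend on scaling, since it is taken within each library. Nr1i3 had 1.91 to 2.63 counts per count of Nr1i2 on chow (median 2.07) and 0.729 to 1.71 on western diet (median 1.28). No western diet library reached the lowest chow library. The mean log2 ratio differed by −0.81 ± 0.15 (± SE), 1.75-fold lower, with p = 4.11e-05 in an exact two-sided permutation test over 24310 labellings, the smallest p that the design allows, and adjusted p = 1.65e-04 over the 4 ratios tested. The overlap with Tomm40l applies to this ratio too.

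Ahr showed no difference that the test could call. Levels ran from 74.3 through 113.3 to 156 CPM on western diet and from 64.2 through 112.2 to 154 CPM on chow, nearly the same range. In log2 terms the diets differed by 0.077 ± 0.18 (edgeR, adjusted p = 0.753), with a 95% interval of −0.303 to 0.457, a range of 0.811-fold to 1.37-fold in the level. Mice differed among themselves more in Ahr than in the other receptors, with coefficients of variation of 24.7% on western diet and 29.1% on chow; chow replicates 8 and 9 held the lowest levels, 64.2 and 65.1 CPM. Ahr lies on chromosome 12, 35497979 to 35534989.

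**Figure D2:**
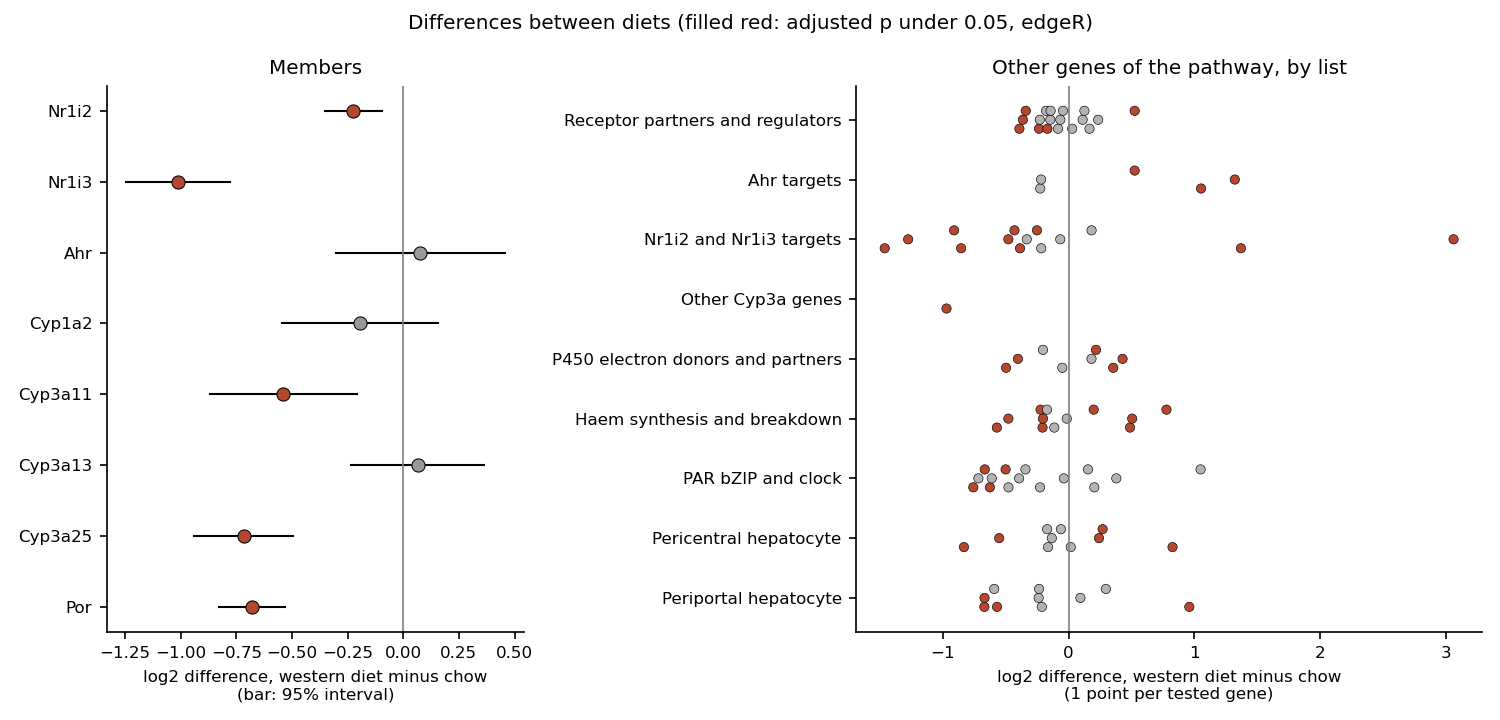
Left, log2 difference (western diet minus chow) of each of the 8 genes with its 95% interval; right, the same for each tested gene of 9 lists of partners, targets and related genes. Red points passed an adjusted p under 0.05 in edgeR, grey points did not; Nr1i3 lies lowest among the 8 at −1.01, and the intervals of Ahr, Cyp1a2 and Cyp3a13 span 0.

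Cyp1a2, which oxidises caffeine and aromatic amines, did not pass, and 1 library decided this. It was at 204.9 CPM in the lowest western diet library, 288.8 in the median and 589 in the highest, against 305.7, 352.3 and 439 CPM on chow. Of the western diet libraries, 5 lay below all chow libraries and 1, replicate 1, above all of them. The log2 difference was −0.19 ± 0.17 (edgeR, adjusted p = 0.358; 95% interval −0.547 to 0.158). Without western diet replicate 1 it was −0.39 (adjusted p = 0.00861), and 6 of the 8 genes then fell. The same library held the most Cyp3a11, Cyp3a25 and Nr1i3 of its group, and its hepatocyte markers summed to 16989 CPM, near the top of its group; the part of these in its Cyp1a2 level was not tested. The coefficient of variation of Cyp1a2 was 40.3% on western diet and 11.2% on chow; the difference in spread was not tested. Cyp1a2 lies on chromosome 9, 57676937 to 57683655.

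Cyp3a11, the main drug-oxidising P450 of mouse liver and a classic target of PXR, fell. Western diet libraries held 671 to 1494 CPM with a median of 911 CPM, and chow libraries 850.1 to 1803 CPM with a median of 1397 CPM. The groups overlapped: 6 of the 8 western diet libraries lay within the chow range, the lower end of which was set by chow replicate 7 (850.1 CPM, against 1171 CPM in the next). The log2 difference was −0.54 ± 0.16 (edgeR, adjusted p = 0.00819), 1.45-fold lower. Cyp3a11 lies on chromosome 5, 145854607 to 145879854, in a cluster of Cyp3a genes.

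Cyp3a25, a member of the same cluster (chromosome 5, 145977192 to 146009644), fell more evenly. Its levels were 379.8 to 660 CPM with a median of 505 CPM on western diet, and 612 to 984 CPM with a median of 799.9 CPM on chow. Only western diet replicate 1 reached into the chow range. Cyp3a25 differed by −0.72 ± 0.11 in log2 (edgeR, adjusted p = 1.69e-05), 1.64-fold lower. Against Cyp3a11 it had a median of 0.521 counts per count on western diet and 0.579 on chow, a log2 ratio lower by −0.17 ± 0.11 (exact permutation test, p = 0.152, adjusted p = 0.152), so a difference between the falls of these genes was not shown; without western diet replicate 3 the log2 ratio difference was −0.22 (adjusted p = 0.0428).

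Cyp3a13, which lies apart from the cluster (chromosome 5, 137892933 to 137925610) and is also made in intestine, did not pass. Levels were 218.2 to 504 CPM with a median of 260 CPM on western diet, and 249.5 to 345.1 CPM with a median of 269.2 CPM on chow. The western diet libraries fell on both sides of chow: 2 lay above all chow libraries and 4 below. Those above were replicate 4 (504 CPM) and replicate 3 (352 CPM), the same 2 that held the least Nr1i3. The log2 difference was 0.064 ± 0.14 (edgeR, adjusted p = 0.737; 95% interval −0.233 to 0.362), and it was −0.089 without western diet replicate 4. The coefficient of variation was 33.0% on western diet and 11.1% on chow. Of 4 intestinal markers, Vil1 was at 0.325 ± 0.186 CPM on chow and 1.69 ± 0.379 CPM on western diet, Lgals4 fell (log2 difference −0.85, edgeR, adjusted p = 3.32e-06, no overlap), Fabp2 did not pass (adjusted p = 0.301) and Cdx2 was at 0 in all 17 libraries. The list summed to 121 to 182 and 136 to 183 CPM, nearly all of it Fabp2 and Lgals4, which liver also makes.

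The relation of Cyp3a13 to Cyp3a11 within a library ranged widely on western diet, from 0.154 to 0.694 counts per count (median 0.287), and from 0.138 to 0.301 on chow (median 0.218). The highest chow library was exceeded by 3 libraries of the western diet group, and none lay under the lowest. The log2 ratio was higher by 0.56 ± 0.3 (exact permutation test, p = 0.0662, adjusted p = 0.132), which did not pass; without western diet replicate 1 the log2 ratio difference was 0.70 (adjusted p = 0.0418).

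**Figure D3:**
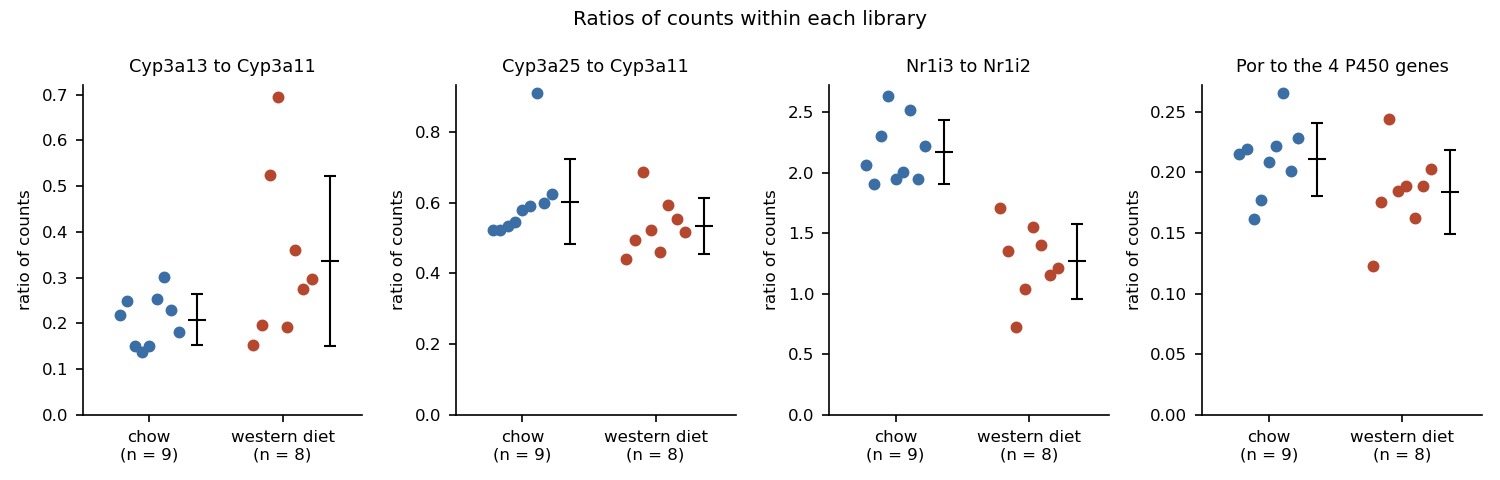
Ratios of counts within each library (linear axes from 0) for 4 pairs of genes or gene sums, 1 point per mouse, chow in blue and western diet in red, with mean and SD as a bar. Nr1i3 to Nr1i2 is the only ratio of the 4 in which the diets do not overlap (0.729 to 1.71 against 1.91 to 2.63).

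Other Cyp3a genes were near the limit of detection, apart from Cyp3a59. That gene, next to Cyp3a25 on chromosome 5, was at 47.8 ± 13.3 CPM on western diet and 94.2 ± 27.0 CPM on chow and fell (log2 difference −0.97 ± 0.20, edgeR, adjusted p = 6.11e-04), though not with hepatocyte markers as library size. Cyp3a16, Cyp3a41a, Cyp3a41b, Cyp3a44 and Cyp3a57 did not pass the low count filter, with at most 22 counts in any library. The genes of the cluster are close copies, so reads may have been split between them, and the values of Cyp3a11, Cyp3a25 and Cyp3a59 are uncertain to that extent.

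Por fell with little spread between mice. Western diet libraries lay at 315.5 to 430.7 CPM with a median of 372 CPM, and chow libraries at 541.1 to 685.7 CPM with a median of 596 CPM. The highest western diet library thus lay well below the lowest chow library. The log2 difference was −0.68 ± 0.071 (edgeR, adjusted p = 2.85e-07), and it ran from −0.71 to −0.64 in the 17 fits that each left out 1 library. Coefficients of variation were 9.42% on western diet and 8.87% on chow. Relative to its clients in this set, Por had a median of 0.187 counts per summed count of Cyp1a2, Cyp3a11, Cyp3a13 and Cyp3a25 on western diet and 0.215 on chow. That log2 ratio was lower by −0.21 ± 0.12 (exact permutation test, p = 0.1003, adjusted p = 0.134) and did not pass, except without western diet replicate 3 (log2 ratio difference −0.27, adjusted p = 0.0428). Most counts of the P450 sum were of Cyp3a11 and Cyp3a25, which both fell (132653 and 75404.5 over the 17 libraries). Cyp1a2 and Cyp3a13 held 36472 and 32057.5. Por lies on chromosome 5, 135670040 to 135735326.

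Within each diet the receptors were set against their target genes over mice, in 9 relations per diet. The overlap with Tomm40l applies to every relation of Nr1i3, here and in the deviations described below. On western diet libraries with more Nr1i3 held more Cyp3a11 (Pearson r = 0.86, p = 0.00451, adjusted p = 0.0406; Spearman rho = 0.83, p = 0.0154, adjusted p = 0.126; exact permutation tests, n = 8). Without the 2 libraries farthest from the median of Nr1i3, r was 0.83. The call was lost in 5 of the 8 recalculations that left out 1 western diet library (replicates 1 to 5), in which r stayed at 0.83 to 0.903 over all 8 and adjusted p reached 0.237. For Cyp3a25 r was 0.75 (p = 0.025, adjusted p = 0.112) and for Cyp3a13 −0.72 (p = 0.0472, adjusted p = 0.142; −0.15 without the 2 farthest libraries), neither of which passed in these exact permutation tests.

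On chow no relation passed (smallest adjusted p = 0.657 for r and 0.45 for rho, exact permutation tests, n = 9). Nr1i3 with Cyp3a11 had r = 0.24 (p = 0.561) and rho = 0.53 (p = 0.148) in the exact tests, and chow replicate 7 had Nr1i3 near the chow median (298 CPM) and the lowest Cyp3a11 of its diet. Whether the relation differs between diets was not tested. Nr1i2 passed with none of the 4 genes it was set against in either diet, with r of −0.41 to 0.42 and adjusted p of at least 0.528 (exact permutation tests), and Ahr with Cyp1a2 had r = −0.052 on western diet (p = 0.908) and 0.22 on chow (p = 0.584), both exact.

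**Figure D4:**
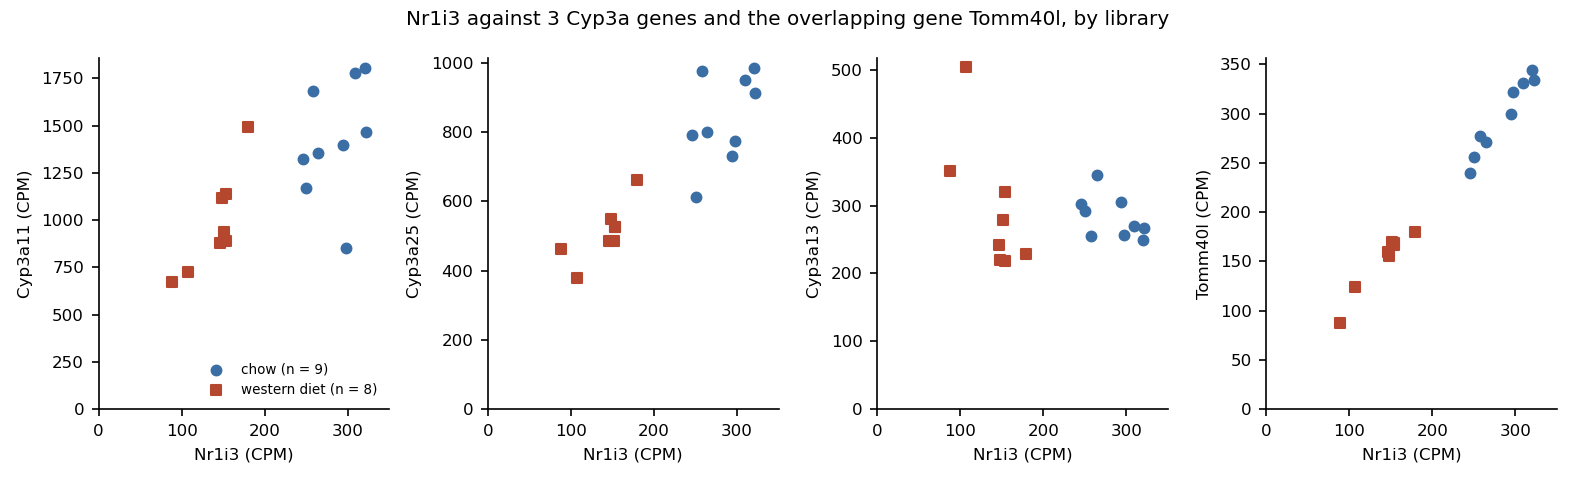
Nr1i3 (horizontal axis, CPM) against Cyp3a11, Cyp3a25, Cyp3a13 and the overlapping gene Tomm40l (vertical axes, CPM) in each library, chow as blue circles (n = 9) and western diet as red squares (n = 8). Western diet replicates 3 and 4 (88.2 and 107 CPM of Nr1i3) lie at the lower left for Cyp3a11 and highest for Cyp3a13, and all points for Tomm40l lie near a line.

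Deviations from the diet means put the P450 genes into a pattern, given here as a description over 17 libraries that share their scaling. Cyp3a11 and Cyp3a25 went together (r = 0.78), both with Nr1i3 (0.63 and 0.62), while Cyp3a13 went against Nr1i3 (−0.69), Cyp3a25 (−0.66) and Cyp3a11 (−0.56). For Por the highest value was 0.39, with Nr1i2. Outside the set, the genes most like Cyp3a25 were Car3 (0.89), C330013E15Rik (0.88) and Mpc1 (0.86), and those most like Cyp3a13 were Slc39a14 (0.88), Esr1 (0.86) and Itih3 (0.86). Next to Nr1i3 after Tomm40l came Col27a1 (0.92) and Ces1g (0.87). For Ahr they were Kpna4, Mtmr10 and Cd2ap (0.83 each), and for Cyp3a11 Rasl11b, Hmg20b and Smarcd1 (0.80, 0.79 and 0.77). The likest genes were looser for Nr1i2 (Foxp2, Mbd1 and Robo1, 0.76 to 0.71), Cyp1a2 (Esd, Maoa and Ugt1a9, 0.76 to 0.75) and Por (Dbt, Pdzd9 and Fbxo3, 0.74 to 0.72).

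Of 18 tested partners and regulators of the receptors 5 fell, against 23.6% of all genes, 1 rose and 12 did not pass, with a median log2 difference of −0.11. Rxra, the retinoid X receptor with which PXR and CAR pair, fell by 0.36 ± 0.063 on the log2 scale (639 ± 60.9 against 822 ± 26.4 CPM, edgeR, adjusted p = 9.21e-05), with no overlap between the diets. Hnf4a, a nuclear receptor that maintains hepatocyte genes, fell by 0.39 ± 0.076 (adjusted p = 2.85e-04), and the corepressor Ncor1, the coactivator Ncoa2 and the HSP90 cochaperone Ptges3 also fell (log2 differences −0.34, −0.23 and −0.17). The HSP90 gene Hsp90ab1 (−0.14, edgeR, adjusted p = 0.17) and Arnt, which pairs with Ahr (0.029, adjusted p = 0.696), did not pass. The gene that rose was Tiparp, itself a target of Ahr that dampens it, from 13.4 ± 1.77 to 19.3 ± 3.51 CPM (adjusted p = 5.48e-04). With library size alone 3 partners rose and 3 fell, and with hepatocyte markers as library size 5 rose and none fell.

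Among other Ahr targets, 3 of 5 tested rose and none fell, beside Cyp1a2, which did not pass. Of all genes tested, 24.8% rose and 23.6% fell. The P450 Cyp1b1 rose 2.50-fold (mean 13.4 against 5.47 CPM, edgeR, adjusted p = 0.00108), with 34.9 CPM in western diet replicate 5, one of the libraries with pancreatic transcripts. The quinone reductase Nqo1 rose 2.08-fold (adjusted p = 0.00211), and Tiparp rose as above. Fibroblasts make much Cyp1b1, and the stellate and fibroblast markers summed to 578 to 1014 CPM on western diet against 381 to 510 CPM on chow, 5 of 6 of them rising; their part in the rise of Cyp1b1 was not tested. Cyp1a1, the most inducible of the Ahr targets, did not pass the filter, at 1.55 ± 1.05 against 1.37 ± 0.641 CPM, and neither did Ahrr or Aldh3a1. Ugt1a6a and Ugt1a6b (log2 differences −0.22 and −0.22, adjusted p = 0.0525 and 0.056) share exons with other Ugt1a genes, so their values cannot be told apart; with an unadjusted p under 0.05 counted 2 fell, DESeq2 called 2 falling and limma-voom none, and 2 fell without western diet replicate 1 or chow replicate 7.

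Other targets of PXR and CAR fell more often than they rose: of 14 tested, 8 fell, 2 rose and 4 did not pass. Across all tested genes 23.6% fell and 24.8% rose. The median log2 difference was −0.36 against −0.0091 for all genes. The carboxylesterase Ces2a was 2.75-fold lower (151 ± 33.5 against 416 ± 91.4 CPM, edgeR, adjusted p = 1.73e-07) and its diets did not overlap. The bile salt and drug uptake carrier Slco1a4 fell by 1.28 ± 0.28 on the log2 scale (adjusted p = 0.0011), the P450 Cyp2c29 by 0.85 ± 0.15, Cyp2c55 by 0.91 ± 0.3, the export pumps Abcc2 and Abcc3 by 0.43 ± 0.11 and 0.39 ± 0.15, Alas1, the first enzyme of haem synthesis, by 0.48 ± 0.17 and the bilirubin-conjugating Ugt1a1 by 0.25 ± 0.09. The glutathione transferase Gsta1 rose 8.35-fold from a low level (24.7 ± 24.1 against 2.92 ± 1.84 CPM, adjusted p = 4.27e-04; 4.93 to 71.7 CPM on western diet), and the drug efflux pump Abcb1a 2.59-fold. Cyp2b9, Cyp2a5, Ugt1a9 and Gadd45b did not pass. Ugt1a1 and Ugt1a9 (log2 differences −0.25 and −0.22) are among the Ugt1a genes that share exons, so their values cannot be told apart either. Cyp2b10, the gene most used as a readout of CAR, did not pass the filter on low counts. It averaged 0.228 ± 0.245 CPM on western diet and 4.31 ± 5.59 CPM on chow. Of the 9 chow libraries, 8 lay above the highest western diet library (0.664 CPM). The chow median was 2.68 CPM, with 18.5 CPM in chow replicate 4 and 0 in chow replicate 8. DESeq2, which tested 17 genes of this list, called 9 falling and 3 rising. With library size alone 5 of the 14 fell, as they did without western diet replicate 5, and with hepatocyte markers as library size 3 did. The fall of Abcc3 was lost in 6 of 17 fits that left out 1 library (western diet replicate 4 or 5, chow replicate 1, 4, 5 or 9), and that of Ugt1a1 in 3 (western diet replicate 5 or 7, chow replicate 3).

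Calls among the other partners of P450 enzymes went both ways. Of 8 tested, 3 rose, 2 fell and 3 did not pass, beside 24.8% rising and 23.6% falling among all genes. The median log2 difference was 0.067, and with hepatocyte markers as library size 5 rose and none fell. Cyb5b, an outer mitochondrial cytochrome b5, and Pgrmc2, a haem-binding membrane protein, fell by 0.50 ± 0.093 and 0.40 ± 0.098 on the log2 scale (edgeR, adjusted p = 2.09e-04 and 0.00206). Cyb5a, the cytochrome b5 of the endoplasmic reticulum, averaged 392 ± 89.3 on western diet and 405 ± 47.7 CPM on chow (adjusted p = 0.739). Its reductase Cyb5r3 and Pgrmc1 did not pass either (0.18 and −0.203 in log2). The mitochondrial electron carriers Fdx1 and Fdxr rose (log2 differences 0.22 and 0.36), as did Cyb5r1 (0.43). The rise of Fdx1 was lost in 6 of 17 fits that left out 1 library (western diet replicate 1 or 6, chow replicate 2, 3, 6 or 8).

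Genes that make haem, the cofactor of P450 enzymes, fell where they passed, except for Uros. Of 12 genes of haem synthesis and breakdown 5 fell, 4 rose and 3 did not pass (Urod, Ppox and Blvrb). Shares over all tested genes were 23.6% falling and 24.8% rising. Cpox fell by 0.57 ± 0.082 on the log2 scale (317 ± 39.0 against 471 ± 48.3 CPM, edgeR, adjusted p = 1.27e-05, no overlap), and Alas1, Alad and Fech were among the others that fell (log2 differences −0.48, −0.21 and −0.22). Rises were seen in Uros (0.51) and in 3 genes of breakdown, Hmox1 (0.78 ± 0.16, adjusted p = 4.50e-04), Hmox2 and Blvra. With library size alone 1 gene of the list fell, without western diet replicate 5, 3 did, and with hepatocyte markers as library size none fell and 4 rose. The fall of Alad was lost without western diet replicate 4, 5 or 6 or chow replicate 3, 4 or 5, and that of Alas1 without western diet replicate 5.

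Clock genes vary with the hour of collection, which is not given, and 4 of 15 tested fell, against 23.6% of all genes. The PAR bZIP factors Dbp, Tef and Hlf activate Nr1i3, Por and P450 genes in mouse liver. Tef and Hlf fell (log2 differences −0.76 ± 0.26 and −0.63 ± 0.11, edgeR, adjusted p = 0.0247 and 7.91e-05; the fall of Tef was lost without chow replicate 9), and Dbp was at 10.7 to 88.8 CPM on western diet and 8.25 to 203 CPM on chow (adjusted p = 0.427). The other 2 that fell were Clock and Cry2, and none fell with hepatocyte markers as library size. None of the 15 rose with edgeR, also at an unadjusted p under 0.05; DESeq2 called none rising and limma-voom 1, and 1 rose without chow replicate 1, 2 or 9. With the first principal component of this list as a covariate, 3 genes of the list rose and 6 fell. That component is built from the same 15 genes, so their own calls in this fit carry no weight. In that fit Nr1i3, Por, Cyp3a25, Cyp3a11 and Nr1i2 all fell again (log2 differences −0.97, −0.65, −0.65, −0.52 and −0.22, edgeR, adjusted p of at most 0.0149), and Cyp3a13 was at −0.038.

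The place of the hepatocyte in the lobule gave no single direction. Of 10 pericentral genes, made where Cyp1a2 and Cyp3a11 are also highest, 3 rose (Glul, Rhbg and Lect2), 2 fell (Oat and Slc1a2) and 5 did not pass, among them Cyp2e1 (1750 ± 432 against 1918 ± 215 CPM, edgeR, adjusted p = 0.375). Only 1 of these genes rose without western diet replicate 1, western diet replicate 2 or chow replicate 4, and the rise of Glul (log2 difference 0.27, edgeR, adjusted p = 0.0394) was lost in 7 of 17 fits that left out 1 library (western diet replicate 1, 2 or 4, chow replicate 4, 5, 7 or 9). That of Lect2 was lost in 6 (western diet replicate 1 or 2, chow replicate 2, 4, 6 or 8). Of 10 periportal genes 3 fell (Cyp2f2, Hal and Pck1), 1 rose (Cdh1) and 6 did not pass; without western diet replicate 3, 7 fell. The median log2 differences of the pericentral and periportal genes were −0.10 and −0.24. Over all tested genes 24.8% rose and 23.6% fell.

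All members except Ahr are made mainly by hepatocytes in liver, and in whole tissue fewer hepatocytes and less RNA per hepatocyte cannot be told apart. Of 7 hepatocyte markers 2 fell (Alb and Serpina1c) and 5 did not pass, median log2 difference −0.23, while all 5 macrophage markers and all 5 bile duct markers rose; macrophage markers summed to 694 to 1142 CPM on western diet and 298 to 515 CPM on chow. With the summed counts of the hepatocyte markers as library size, an alternative chosen after seeing the data, the median over all genes moved to 0.31 and 93.5% of all calls were rises, in place of 51.2%; with library size alone they were 73.5%. On that scale Nr1i3, Cyp3a25 and Por fell (log2 differences −0.68, −0.39 and −0.37, edgeR, adjusted p = 8.96e-04, 0.00594 and 0.00928). Cyp3a11 did not pass (−0.21, adjusted p = 0.272) and neither did Nr1i2 (0.09, adjusted p = 0.555), which lay on the other side of 0. Without the 2 libraries with pancreatic transcripts the same 5 members fell as with all 17.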

How the data were processed

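Whole-liver RNA of 17 mice was sequenced in pairs of reads with a NEBNext Ultra kit, per the labels' protocols. The authors deposited 1 table of estimated counts per gene and library, in steps of 0.5; STAR 2.4.1c, HOMER, FastQC, MultiQC and the mm10 build are named in the submitters' processing notes, and how reads were assigned to genes, strand included, is not given in the sources used here. Counts were rounded to whole numbers; 3 genes without a value were left out. Depth is given in the report.

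Genes were kept by edgeR's filter on low counts, scaled by TMM and tested with edgeR 4.0.16 (quasi-likelihood, robust), all 17 libraries in 1 fit with diet as the only term, with Benjamini-Hochberg adjustment over 13204 genes. DESeq2 1.42.0 and limma 3.58.1 (voom) were alternatives, as were other scalings, filters, thresholds and covariates and leaving out each library; scaling to hepatocyte markers was chosen after seeing the data. CPM values use TMM-scaled library sizes and the counts as deposited. Ratios add 0.5 counts to each term and were tested, as were relations, by exact two-sided permutation. The fits were tested on simulated data.

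The members and lists were chosen with earlier results of these data known. Named were every member, the 3 most abundant tested genes of each list, genes of a list where 5 or fewer rose, fell or did not pass, and the 3 genes most like each member; the falling targets of PXR and CAR other than Ugt1a1 and Abcc2 were chosen after their values were seen. Some genes of the lists are counted but not reported here by name. Positions are from a RefSeq table of GRCm38.p6 (mm10), which held 24294 of the 24937 symbols; they span whole genes. Transcript lengths and sequences were not used here, so levels are not compared between genes.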

Additional observations from a re-analysis of the deposited data

Results flagged for a closer look

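The ratio of Cyp3a25 to Cyp3a11 was 0.911 counts per count in chow replicate 7, apart from the other 8 chow libraries at 0.523 to 0.623. On the log2 scale, on which the ratios were examined, its gap to the nearest library was 0.682 of the whole range, above Dixon's critical value of 0.493 for 9 samples. This was the only flag among 24 groups of values tested, and chance flags about 1 in 20 such groups. The same library had the lowest Cyp3a11 of its diet (850.1 CPM), with Cyp3a25 at 774 CPM, inside the range of the others.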

How the results depend on the processing

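Nr1i3 and the ratio of Nr1i3 to Nr1i2 kept their direction and their call under every alternative run. Against a 1.5-fold change 1 member fell, and Nr1i2, Cyp3a11, Cyp3a25 and Por did not pass (log2 differences −0.22, −0.54, −0.72 and −0.68). With hepatocyte markers as library size 3 fell; Cyp3a11 (−0.21) did not pass, and Nr1i2 (0.090), Cyp1a2 (0.076), Hsp90ab1 (0.16), Ptges3 (0.15), Ncoa2 (0.099), Ugt1a6a (0.077), Ugt1a6b (0.085), Ugt1a1 (0.056), Ugt1a9 (0.078), Pgrmc1 (0.092), Cyb5a (0.24), Alad (0.10), Fech (0.10), Cyp2e1 (0.16), Cps1 (0.062) and Ass1 (0.060) changed sign. With library size alone Nr1i2 did not pass (−0.098) and Cyb5a changed sign (0.069), and with the clock covariate Cyp3a13 (−0.038), Nr1d1 (0.14) and Dbp (0.67) did. Cps1 is among the hepatocyte markers, and Dbp and Nr1d1 are among the genes of the clock covariate. Their own counts thus enter those fits, and their changes of sign carry no weight. The cause of the other changes was not tested. Leaving out 1 library at a time gave log2 differences of −0.0048 to 0.16 for Ahr, −0.39 to −0.12 for Cyp1a2 and −0.089 to 0.12 for Cyp3a13, and ratio differences of 0.39 to 0.70 for Cyp3a13 to Cyp3a11, −0.22 to −0.091 for Cyp3a25 to Cyp3a11 and −0.27 to −0.13 for Por to the P450 genes. Correlations that changed sign among these were, on western diet, Nr1i2 with Cyp3a13 (−0.282 to 0.455) and Cyp3a25 (−0.658 to 0.0231), Nr1i3 with Por (−0.58 to 0.154) and Ahr with Cyp1a2 (−0.327 to 0.344, and 0.0736 without the library with pancreatic transcripts). On chow they were Nr1i2 with Cyp3a11 (−0.175 to 0.663) and Cyp3a25 (−0.162 to 0.218, −0.217 with library size alone and −4.00e-04 without the library with pancreatic transcripts), Nr1i3 with Por (−0.0129 to 0.541) and Ahr with Cyp1a2 (−0.265 to 0.372). No paired analysis was possible because chow and western diet mice share no pairing in their labels. Depth limits Cyp1a1, Cyp2b10, Cyp2b13, Akr1b7, Sult2a1 and the minor Cyp3a genes, where a few counts decide a level.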
